A study of Drosophila melanogaster with 2 samples.

Results

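Transfer RNAs carry amino acids to the ribosome, and each nuclear gene for one is a short unit transcribed by RNA polymerase III. Its promoter lies inside the gene, in the A box and the B box, which the factor TFIIIC binds before TFIIIB and the polymerase arrive. The genes described here are all annotated genes on the assembled nuclear arms of the *Drosophila melanogaster* genome whose symbol starts with tRNA:, and there were 295 of them among 18277 annotated genes. Of these, 290 are annotated as tRNA genes and 5 as pseudogenes. They were set beside the positions of Jing, a zinc finger protein needed in the central nervous system midline and the trachea and related to the mammalian Polycomb-associated protein AEBP2.

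The study measured Jing by ChIP-seq, in which DNA bound to a protein is precipitated with an antibody and sequenced. It used 1 group of 2 biological replicates, numbered 2 and 3, of whole embryos of both sexes collected 0 to 16 h after laying, from 1 transgenic line that expresses Jing with GFP at its C terminus. The antibody was directed against GFP per the sample description, whereas another label names Jing itself, and the DNA was sonicated to 200 to 800 bp. No other genotype, tissue or treatment was in the data, and the control libraries were not analysed here. Whole embryos mix all tissues, so a site used in few cells and a site used weakly in many cannot be told apart.

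The deposited peak lists were a relaxed list of 30000 peaks for each replicate, a relaxed list of 30000 for both replicates pooled, and a thresholded list of 2593 peaks. Each peak has a signal, which is the authors' own value on a scale the sources used here do not give, and is used here only for ranks within a list. A relaxed list runs far below significance by design: in replicate 2 the −log10 q-value of its peaks started at 0.0712, and in replicate 3 at 0.0867. The lists hold no read counts, so the depth behind each peak is unknown. A gene was counted as beside a summit when its nearest base lay within a stated distance of the summit, the base that the peak caller marked as the highest. With 2 replicates and no second group there was no test, and each count is set beside that of all genes and beside the share of bases equally near a summit.

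The 295 genes were spread unevenly: 100 on arm 2R, 79 on 3R, 49 on 3L, 41 on 2L, 26 on X and none on 4 or Y. They covered 22 isotypes, the initiator methionine and selenocysteine tRNAs counted separately, and 45 pairs of isotype and anticodon. Their length ran from 71 to 186 bp with a median of 73 bp, and 238 had at least 1 copy identical over its whole length, with up to 13 identical genes. They fell into 146 clusters when neighbours within 5 kb were joined, 77 of them single genes and 69 with 2 or more, which held 218 genes. By location, 157 were intergenic, 130 lay in introns of other genes and 8 in exons of other genes. The start of another gene lay within 500 bp of 46 of them.

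Sequence repeats bear on what any read can show at these genes. No word of 50 bases inside the gene was unique in the genome for 238 of the 295. With 200 bp on both sides added, a median of 93.2% of such words were unique, and 248 windows were at least 90% unique. A stretch of 50 bases from the gene body thus often has several matching places, while one from the flanks mostly has a single place. The read length and the handling of such reads were not given, and their part in the counts was not tested. The letters GTTCGANNC, a strict form of the B box read on either strand, were found in 162 genes (54.9%), against 0.873% of windows of 73 bp at the 5′ ends of 17982 other genes. With any base in place of the second G (GTTCNANNC, which also takes in every strict match) the genes with a match were 274 (92.9%), against 2.89% of the same windows.

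The thresholded peaks nearest to a tRNA gene are shown by their sequence, because they place the summit beside the gene and not in it. Each run joins the thresholded summit to the far end of the tRNA gene, with the gene in capitals and the flank in lower case, 5′ to 3′ on the gene's strand, from RefSeq Release 6 (dm6). In the first and second the summit is the first base, and in the third it is the last. They are chr3R:8669081-8669368 on the minus strand, chr3R:24112794-24113047 on the plus strand and chrX:6744325-6744543 on the minus strand.
tRNA:Tyr-GTA-1-8: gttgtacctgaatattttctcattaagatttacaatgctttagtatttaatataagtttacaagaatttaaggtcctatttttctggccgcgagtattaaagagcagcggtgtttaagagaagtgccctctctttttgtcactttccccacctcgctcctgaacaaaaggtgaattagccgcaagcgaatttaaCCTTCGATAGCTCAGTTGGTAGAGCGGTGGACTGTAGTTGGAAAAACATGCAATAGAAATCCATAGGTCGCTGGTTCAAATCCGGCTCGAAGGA
tRNA:Leu-TAA-2-1: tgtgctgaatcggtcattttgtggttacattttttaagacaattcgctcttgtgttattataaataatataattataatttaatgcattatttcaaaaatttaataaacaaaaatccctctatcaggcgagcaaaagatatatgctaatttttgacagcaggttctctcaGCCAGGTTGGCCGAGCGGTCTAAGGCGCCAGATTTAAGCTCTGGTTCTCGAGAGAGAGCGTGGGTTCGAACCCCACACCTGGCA
tRNA:Phe-GAA-1-2: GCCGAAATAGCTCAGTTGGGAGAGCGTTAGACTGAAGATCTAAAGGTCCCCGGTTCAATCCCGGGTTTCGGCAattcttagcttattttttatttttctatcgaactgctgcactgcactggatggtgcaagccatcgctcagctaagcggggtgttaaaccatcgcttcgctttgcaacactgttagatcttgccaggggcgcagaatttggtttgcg

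The genes in which replicate 2 had a relaxed summit are shown with the B box (GTTCNANNC) in capitals, for 5 of the 12. They lie on the minus strand of chr2L:8541552-8541623, the plus strand of chr3L:3096369-3096440, the plus strand of chr3L:13214109-13214233, the plus strand of chr3R:22396528-22396609 and the minus strand of chrX:21304441-21304535.
tRNA:Asp-GTC-1-4: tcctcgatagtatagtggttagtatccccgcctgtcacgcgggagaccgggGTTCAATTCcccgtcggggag
tRNA:Cys-GCA-1-3: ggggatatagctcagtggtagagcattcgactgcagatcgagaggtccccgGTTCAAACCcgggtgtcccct
tRNA:Leu-CAA-2-2: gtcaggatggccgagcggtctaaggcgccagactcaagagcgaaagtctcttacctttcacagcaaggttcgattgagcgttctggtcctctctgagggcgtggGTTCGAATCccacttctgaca
tRNA:Ser-GCT-2-3: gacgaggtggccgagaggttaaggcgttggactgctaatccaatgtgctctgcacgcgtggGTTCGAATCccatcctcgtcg
tRNA:Tyr-GTA-1-1: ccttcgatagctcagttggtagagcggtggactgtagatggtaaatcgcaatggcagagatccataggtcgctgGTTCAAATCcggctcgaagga

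Few tRNA genes lay beside a thresholded Jing peak. Within 1 kb there were 9 of 295 (3.05%), and all genes reached 13.2% measured from the gene and 8.14% measured from the gene's 5′ end, which is the fairer measure since most genes are longer than a tRNA gene. Measured from 5′ ends, protein-coding genes reached 8.96%, and 3.53% of all bases of the arms were as near to a thresholded summit. By cluster, 8 of 146 (5.48%) had a member beside 1 of 8 peaks. The share of tRNA genes within 1 kb was thus close to that of bases at large. No thresholded summit lay inside a tRNA gene or within 100 bp of one, a distance that holds 0.379% of bases. Within 250 bp there were 3 genes (1.02%, against 0.935% of bases) and within 500 bp 4 (1.36%, against 1.83%). Within 2 kb there were 30 (10.2%, or 9.15% by the 5′ end). That was above the 6.64% of bases and nearer to the 11.7% of all genes by the 5′ end. So 21 genes of 14 clusters had their nearest summit 1 to 2 kb away. Along any part of their length, 2 thresholded peaks overlapped a tRNA gene (0.678% of tRNA genes, with 0.619% of bases under a thresholded peak), at tRNA:Leu-TAA-2-1 and tRNA:Phe-GAA-1-2.

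The median distance of a tRNA gene from a thresholded summit was 18841 bp, against 18395 bp for the 5′ ends of all genes and 17561 bp for protein-coding genes. The quartiles of the tRNA genes were 8704 and 36789.5 bp. The nearest was tRNA:Phe-GAA-1-2 at 146 bp and the farthest tRNA:Gly-GCC-1-1 at 192471 bp. Beyond 10 kb there were 215 (72.9%).

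**Figure D1:**
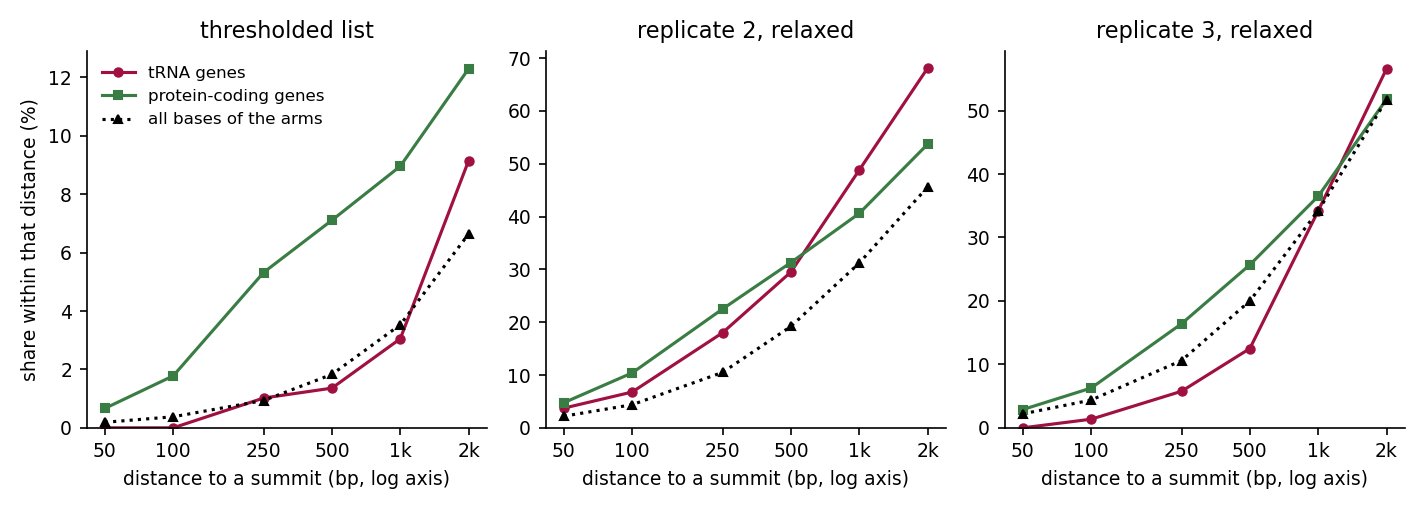
Share of 5′ ends of tRNA genes and of protein-coding genes, and of all bases of the arms, within 50 bp to 2 kb of a summit (x axis in bp, logarithmic, y axis in percent with its own range in each panel). In the thresholded list tRNA genes follow the bases and not the protein-coding genes up to 1 kb, and in replicate 3 they lie below the bases up to 500 bp, while in replicate 2 they lie above them at every distance.

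The strongest of the 8 peaks belonged to a tyrosine cluster on arm 3R. Its summit lay 194 bp upstream of tRNA:Tyr-GTA-1-8 (FBgn0012024, an intron-bearing gene at chr3R:8669081-8669174) and 663 bp upstream of tRNA:Tyr-GTA-1-7 (FBgn0012025, chr3R:8668612-8668705). Both genes lie in introns of CG8036 and of p, and a start of CG8036 was 250 bp from the summit. The peak ranked 126 in replicate 2, 201 in replicate 3 and 162 in the pooled list. The summits of the replicates lay 10 and 6 bp from it, so both replicates place it in the same flank. The thresholded list is made from these replicates, so their ranks describe its peaks and are no independent check. Of the 10 Tyr-GTA genes, which lie on 2L, 3R and X, these 2 were the only ones within 1 kb of a thresholded summit.

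The 3 genes of that cluster show how alike such neighbours are. They are given below with exons in capitals and the intron in lower case, on the minus strand at chr3R:8668116-8668208, chr3R:8668612-8668705 and chr3R:8669081-8669174. The 73 exon bases were identical in all 3. The introns were 20, 21 and 21 bases long, and the last 2 matched at 19 of 21 bases.
tRNA:Tyr-GTA-1-6: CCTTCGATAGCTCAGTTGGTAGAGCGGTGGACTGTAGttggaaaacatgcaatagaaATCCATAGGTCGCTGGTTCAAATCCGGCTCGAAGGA
tRNA:Tyr-GTA-1-7: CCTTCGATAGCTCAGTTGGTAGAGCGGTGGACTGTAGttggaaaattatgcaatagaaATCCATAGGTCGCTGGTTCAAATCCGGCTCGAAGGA
tRNA:Tyr-GTA-1-8: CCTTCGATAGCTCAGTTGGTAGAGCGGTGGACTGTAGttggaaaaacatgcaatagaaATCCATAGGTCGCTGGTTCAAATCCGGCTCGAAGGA

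Of the 8 peaks 4 had another gene's start within 500 bp, and all 4 summits lay upstream of it. At the 3 besides the tyrosine peak, the start was nearer than the tRNA gene in 2 cases. The peak of tRNA:Val-TAC-1-1 (FBgn0052420, chr3L:5356343-5356415, 875 bp away) had its summit 122 bp from a start of lama, and ranked 588 in replicate 2 and 1241 in replicate 3. That of tRNA:Phe-GAA-1-2 (FBgn0052740, chrX:6744471-6744543, 146 bp away) lay 87 bp from a start of RpL17, a ribosomal protein gene, with ranks of 1115 and 1623 in replicates 2 and 3. The third, at tRNA:Leu-TAA-2-1 (FBgn0053536, chr3R:24112964-24113047, 170 bp upstream), lay 405 bp from a start of CG13605. It was the only one of the 8 peaks with a lower rank number in replicate 3 (2105) than in replicate 2 (3332), where a lower number is a stronger peak.

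The 4 remaining peaks had no other start within 2 kb. The summit at tRNA:Gln-TTG-2-1 (FBgn0052493, chrX:3427452-3427523, 258 bp upstream), in an intron of CG12535, was 8026 bp from the nearest other start, that of CG14269, and ranked 785 in replicate 2 and 1547 in replicate 3. The summit 881 bp upstream of tRNA:Glu-CTC-3-1 (FBgn0052330, chr3L:1379934-1380005) was 8425 bp from a start of ru, a rhomboid protease gene of Egfr signalling, with ranks of 907 and 1691 in replicates 2 and 3. These are sites away from any annotated start other than that of a tRNA gene. The weaker pair were at tRNA:Leu-CAA-2-2 (chr3L:13214109-13214233, 594 bp, ranks 1938 and 3062 in replicates 2 and 3) and tRNA:Gly-GCC-1-6 (chr2L:14518621-14518691, 770 bp, ranks 1893 and 3725). In replicate 3 both of these fell outside its strongest 2593 peaks. Counted over genes, 6 of the 9 lay nearer to the summit than any other gene's start did, and 3 did not.

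**Figure D2:**
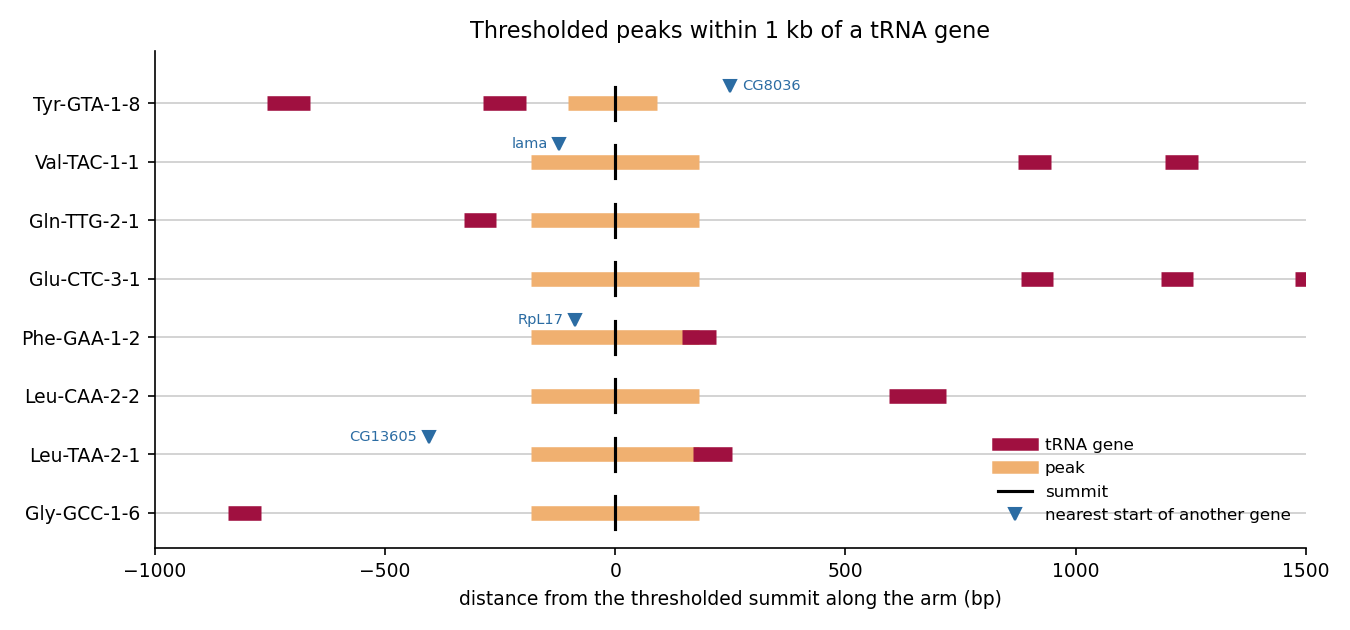
The 8 thresholded peaks within 1 kb of a tRNA gene, each aligned at its summit (x axis in bp along the arm; orange, peak; dark red, tRNA gene; blue triangle, nearest start of another gene where within 1 kb). Summits sit in the flanks of tRNA genes, and 4 peaks have a start of another gene within 500 bp.

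Where a tRNA gene had a thresholded summit within 1 kb, most genes of the same anticodon lacked one, Val-TAC with 1 of 2 aside. Gly-GCC has 14 genes, and tRNA:Gly-GCC-1-6, with 12 copies identical to it, was the only one within 1 kb of a thresholded summit. Likewise 1 of 8 Phe-GAA genes, 1 of 15 Glu-CTC genes, 1 of 4 Gln-TTG genes, 1 of 4 Leu-CAA genes, 1 of 4 Leu-TAA genes and 1 of 2 Val-TAC genes had one. The remaining 37 of 45 anticodon pairs had none, among them Asp-GTC with 14 genes, Lys-CTT with 13 and Ala-AGC with 12. Over all tRNA genes the share was 3.05%, with 3.53% of bases as near to a thresholded summit. At that share most anticodons would have few genes or none, so these counts set no anticodon apart.

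Just below the threshold stood 10 further pooled peaks within 1 kb, ranked from 2728 to 4703. The first was 376 bp from tRNA:Val-CAC-2-5 in an intron of Naam, and ranked 2503 in replicate 2 and 2839 in replicate 3. The second lay 287 bp from tRNA:Glu-TTC-1-5 and 21 bp from the start of snoRNA:185. It ranked 1657 in replicate 2, but in replicate 3 the nearest summit was 2102 bp away. The third was 245 bp from tRNA:Asp-GTC-1-5 and 70 bp from a start of Sema1a, with ranks of 3008 in replicate 2 and 4232 in replicate 3. At tRNA:Gly-GCC-1-3, by contrast, replicate 3 ranked the site 2290 and replicate 2 had only a summit 246 bp away at rank 29578. The others were at tRNA:Ser-GCT-2-3, tRNA:Ile-AAT-1-9, tRNA:iMet-CAT-2-1, tRNA:Gly-TCC-2-2, tRNA:Glu-CTC-3-3 and tRNA:Gly-GCC-1-2, between 203 and 1000 bp from the gene. The last thresholded peak at a tRNA gene ranked 2481 in the pooled list, with a signal of 109.7, and the first below the threshold had 101.7, so the values run on across it.

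When the 2593 strongest peaks of a single replicate were used, 14 tRNA genes (4.75%) lay within 1 kb in replicate 2 and 8 (2.71%) in replicate 3, while 8.82% and 8.32% of all genes did so by their 5′ ends in replicates 2 and 3. Both replicates gave 6 of the tRNA genes, 42.9% of those in replicate 2 and 75.0% of those in replicate 3. The matching overlap over all genes was not computed. Those 6 were tRNA:Tyr-GTA-1-8, tRNA:Tyr-GTA-1-7, tRNA:Val-TAC-1-1, tRNA:Gln-TTG-2-1, tRNA:Glu-CTC-3-1 and tRNA:Phe-GAA-1-2. Of the 8 in replicate 2 alone, 4 are glutamate genes of 1 cluster on 2R.

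In the relaxed pooled list 106 tRNA genes (35.9%) of 67 clusters lay within 1 kb of a summit, against 49.3% of all genes by the gene and 35.9% by the 5′ end, and 32.7% of bases. At this distance tRNA genes stood where all genes' starts did. Nearer in they did not: within 250 bp of the 5′ end of the tRNA gene there were 19 (6.44%), against 16.0% of all genes and 10.5% of bases.

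The 2 replicates differed at the tRNA genes. Within 250 bp of the gene replicate 2 had a relaxed summit at 63 tRNA genes (21.4%) and replicate 3 at 20 (6.78%), though both lists hold 30000 peaks. By the 5′ end these were 53 (18.0%) in replicate 2 and 17 (5.76%) in replicate 3, against 20.8% and 15.1% of all genes in replicates 2 and 3, 22.5% and 16.4% of protein-coding genes, and 10.5% and 10.6% of bases. So replicate 2 had more summits near starts in general, but the gap was wider at tRNA genes. Near a summit in both were 12 genes, 19.0% of those in replicate 2 and 60.0% of those in replicate 3. The matching overlap over all genes was not computed, so this overlap is not shown to be particular to tRNA genes.

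The ratio of the 2 counts grew with nearness. The difference in genes was larger within 500 bp (94 in replicate 2 and 40 in replicate 3) than within 250 bp. Within 2 kb it was smaller, with 204 in replicate 2 and 170 in replicate 3. Within 100 bp of the gene there were 26 tRNA genes (8.81%) in replicate 2 and 4 (1.36%) in replicate 3; by the 5′ end these were 6.78% and 1.36%, against 9.49% and 5.83% of all genes in replicates 2 and 3. A summit lay inside the gene at 12 tRNA genes in replicate 2 and at 1 in replicate 3, with 2 in the pooled list. Within 1 kb of the 5′ end the tRNA genes were at 48.8% in replicate 2 and 34.2% in replicate 3, while all genes were at 40.9% and 36.6%. At 51 genes replicate 2 had a summit within 250 bp and replicate 3 had not, and there the nearest summit of replicate 3 was a median of 1684 bp away. No such median was computed for other genes.

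The position of summits around the first base of the gene shows the same. From −250 to 249 bp replicate 2 had 52 summits, or 0.353 per kb per gene, much as in the surroundings 1 to 2 kb away (0.336). Replicate 3 had 17 in that stretch, or 0.115 per kb per gene, against 0.282 in its surroundings, a ratio of 0.409. In the pooled list the ratio was 0.438. In the 100 bp centred on the first base replicate 2 had 11 summits, replicate 3 had 0 and the pooled list had 2. Replicate 2 was therefore level with its surroundings at the genes, and replicate 3 had a dip there. The mean over the arms was 0.222 per kb in replicate 2 and 0.224 in replicate 3, below the surroundings in both. Against that mean, replicate 2 was raised at the genes and replicate 3 was still low. Around protein-coding 5′ ends both rose, by 2.3 times in replicate 2 and 1.79 times in replicate 3 over the same stretches. A summit near several tRNA genes was counted once for each. The surroundings can hold other tRNA genes, since 218 of the 295 genes lie in clusters. Level with the surroundings thus does not mean level with sequence free of tRNA genes.

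**Figure D3:**
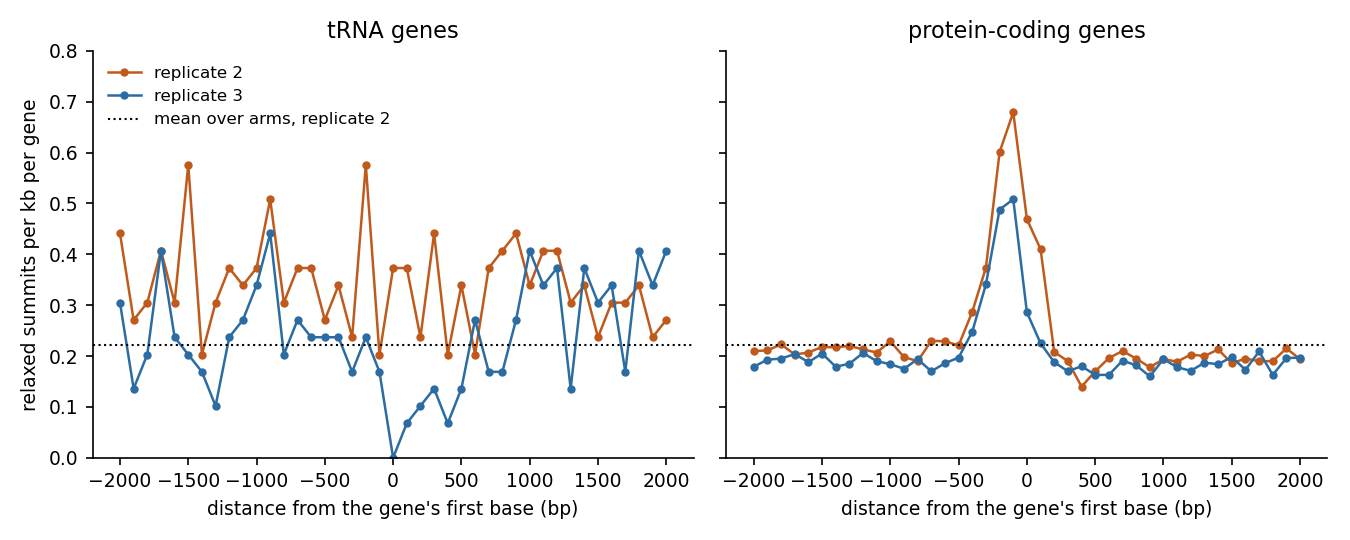
Relaxed summits per kb per gene in 100 bp bins from −2 to 2 kb around the first base of 295 tRNA genes and of protein-coding genes. Positive distances run in the direction of transcription. As tRNA genes are 71 to 186 bp long, most positive distances lie past their end. The dotted line is the mean over the arms of replicate 2. At tRNA genes replicate 2 stays about the level of the surroundings and replicate 3 drops to 0 in the bin at the first base, while at protein-coding genes both replicates peak just upstream.

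The summits behind this were weak. The 63 tRNA genes of replicate 2 were served by 50 summits with a median rank of 18081 of 30000, and the 20 of replicate 3 by 18 summits with a median rank of 19046. Just 3 summits in each replicate were among its strongest 2593. The median −log10 q-value was 0.196 in replicate 2 and 0.104 in replicate 3. The 12 summits inside genes ranked from 6004 to 28416 in replicate 2, and the strongest were at tRNA:Cys-GCA-1-3 (rank 6004, 56 bp into the gene) and tRNA:iMet-CAT-1-2 (rank 6446, 57 bp into the gene). The others were at tRNA:Gly-GCC-1-10, tRNA:Glu-TTC-1-1, tRNA:Asp-GTC-1-4, tRNA:Lys-CTT-1-8, tRNA:Arg-ACG-1-10, tRNA:Thr-TGT-2-3, tRNA:Arg-ACG-1-6, tRNA:Ser-GCT-2-3, tRNA:Leu-CAA-2-2 and tRNA:Tyr-GTA-1-1. All 12 genes belong to clusters of 2 or more, as do 218 of the 295. No unique word of 50 bases was found in 10 of the 12, and in 238 of the 295. The letters GTTCNANNC are in 11 of the 12 and in 274 of the 295, so neither trait sets the 12 apart by its share. Replicate 3 had a summit within 250 bp at 2 of the 12.

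The gap between the replicates was small among genes alone, wider in clusters and widest in large clusters. Among genes that stand alone 15 of 77 (19.5%) were within 250 bp of a summit in replicate 2 and 11 (14.3%) in replicate 3. That gap was similar to the one over all genes by their 5′ ends, 20.8% in replicate 2 and 15.1% in replicate 3. The measures differ, as genes alone were measured from the nearest base of the gene. Among genes in clusters of 2 to 4 there were 28 of 140 (20.0%) in replicate 2 and 8 (5.71%) in replicate 3. In the 11 clusters of 5 or more genes there were 20 of 78 (25.6%) in replicate 2 and 1 (1.28%) in replicate 3, and none of these clusters had a thresholded summit within 1 kb. By arm, 2R had 17 of 100 genes in replicate 2 and 1 in replicate 3. In replicates 2 and 3, 2L had 11 and 4 of 41 genes, and 3L 13 and 5 of 49. On 3R they were 16 and 6 of 79, and on X 6 and 4 of 26. Cluster size and arm were not separated. Intergenic genes had 35 of 157 in replicate 2 and 9 in replicate 3, and genes in introns had 26 of 130 in replicate 2 and 11 in replicate 3. Where the window around the gene was at least 90% unique, 57 of 248 genes were near a summit in replicate 2 and 18 in replicate 3. These windows still hold the gene body, so repeated sequence was not removed by this choice. Genes with no identical copy had 12 of 57 (21.1%) in replicate 2 and 6 (10.5%) in replicate 3. Genes with an identical copy had 51 of 238 (21.4%) in replicate 2 and 14 (5.88%) in replicate 3. Near another gene's start (within 500 bp) the counts were 9 of 46 in replicate 2 and 5 in replicate 3, and away from one 54 of 249 in replicate 2 and 15 in replicate 3. Read depth and control signal of the replicates are not in the lists, and their part in the gap was not tested.

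None of the 5 largest clusters had a thresholded summit within 1 kb. The cluster of 11 genes from tRNA:Val-CAC-1-1 to tRNA:Pro-TGG-1-3 on 3R (chr3R:17617761-17631750) holds valine, proline, threonine and alanine tRNA genes. In it 8 genes were within 1 kb of a pooled relaxed summit, and its nearest thresholded summit was 13345 bp away. The other cluster of 11, from tRNA:Arg-ACG-1-2 to tRNA:Arg-ACG-1-4 on 2R, had no pooled summit nearer than 9211 bp, although replicate 2 had one 435 bp away. The cluster of 8 from tRNA:iMet-CAT-1-1 on 2R had 5 genes within 1 kb of a pooled summit and lay 93331 bp from a thresholded one. The clusters of 7 were the isoleucine and leucine genes from tRNA:Ile-AAT-1-3 on 2R and the arginine and serine genes from tRNA:Arg-TCG-2-1 on X. Neither had a gene within 1 kb of a pooled summit. On X replicate 2 placed summits within 250 bp of 3 of the 7 genes, and replicate 3 of none.

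By isotype, replicate 2 had more genes within 250 bp of a relaxed summit than replicate 3 in 17 of 22, fewer in 1 and as many in 4. Arginine genes had 9 of 26 in replicate 2 and 0 in replicate 3, and glutamate genes 7 of 21 in replicate 2 and 1 in replicate 3. Aspartate genes had 6 of 14 in replicate 2 and 3 in replicate 3, with all 3 shared. Cysteine genes had 3 of 7 in replicate 2 and 0 in replicate 3. The exception was elongator methionine, with 1 of 6 in replicate 2 and 2 in replicate 3. Tyrosine genes had 3 of 10 in both, and asparagine genes had none of 10 in either. Most isotypes have few genes, and genes of 1 cluster can share a summit, so single isotypes cannot be ranked from these counts.

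**Figure D4:**
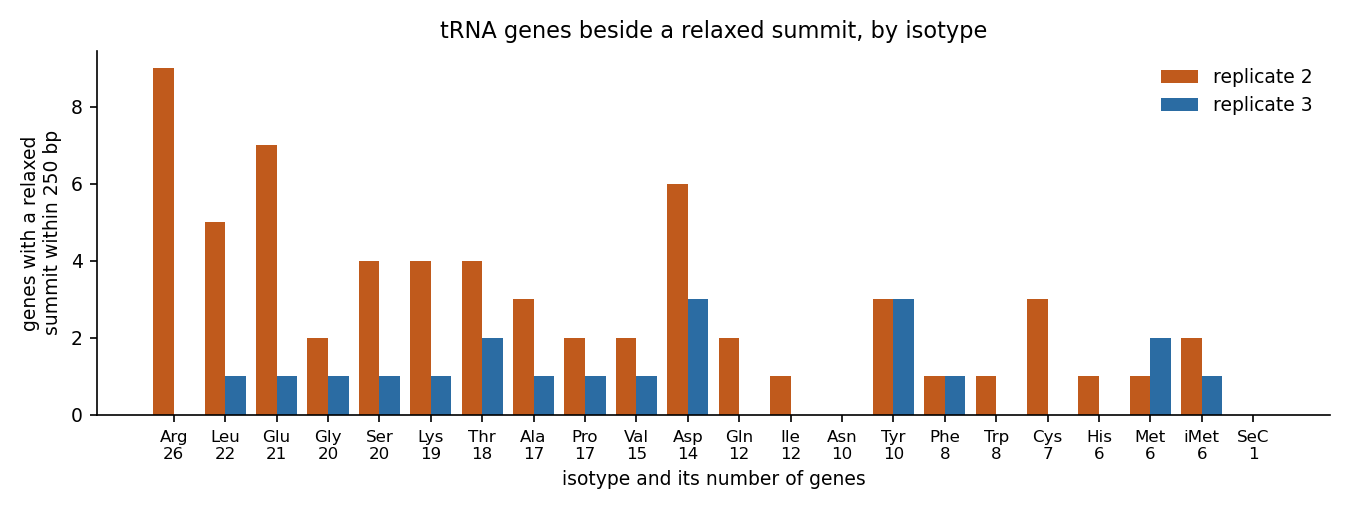
Number of tRNA genes of each isotype with a relaxed summit within 250 bp in replicate 2 and replicate 3 (the number below each name is the isotype's count of genes). Replicate 2 is higher in 17 isotypes, among them Arg with 9 against 0 in replicate 3, and Met is the one where it is lower.

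Genes that make and use tRNAs were counted in the same way. Of 21 matched genes for the RNA polymerase III machinery, 4 (19.0%) had a thresholded summit within 1 kb of the gene, against 13.2% of all genes. By the 5′ end there were also 4 (19.0%), against 8.14% of all genes. The TFIIIB subunit gene Bdp1 had one 136 bp away at rank 114, which was 7 bp from a start of CG6565. The polymerase subunit gene Polr3E had one 226 bp away at rank 1135, and no start was nearer to it. In Brf, which encodes another TFIIIB subunit, the strongest summit lay inside the gene at rank 1570, with a start of lute as the nearest at 758 bp, and another thresholded summit lay 189 bp from the 5′ end of Brf.

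Of 35 aminoacyl-tRNA synthetase genes, whose products load amino acids on tRNAs, 4 (11.4%) had such a summit, against 13.2% of all genes. By the 5′ end there were also 4 (11.4%), against 8.14% of all genes. The summit lay 25 bp from the 5′ end of SerRS (rank 773), 172 bp from IleRS (rank 710) and 165 bp from GluProRS (rank 665, with a start of AP-1sigma at 95 bp). At the mitochondrial LeuRS-m it was 820 bp away (rank 415, with a start of Dhc64C at 654 bp). At IleRS replicate 3 had a relaxed summit 177 bp from the 5′ end, and the nearest in replicate 2 was 6769 bp away. Of 22 matched genes for tRNA processing and modification, 3 (13.6%) had a thresholded summit within 1 kb of the gene, against 13.2% of all genes. By the 5′ end there was 1 (4.55%), against 8.14% of all genes. Among the 3 were the KEOPS complex gene Tcs5 (112 bp, rank 14, with a start of CHMP2B as near) and the splicing endonuclease gene Tsen34 (58 bp, rank 1391). The summit at Tsen34 was 587 bp from a start of Trl. No thresholded summit lay nearer than 1382 bp to the 5′ end of Tsen34. In lists this short 1 gene moves the share by several percentage points, and several of these summits lay nearer to another gene's start.

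Among 106 other genes transcribed by RNA polymerase III, 1 (0.943%) lay within 1 kb of a thresholded summit, against 13.2% of all genes. By the 5′ end there was none, against 8.14% of all genes. However, 96 of the 106 are 5S ribosomal RNA genes on 2R that share 1 nearest thresholded summit, 60036 to 96618 bp away. These copies are not separate sites, so the share mostly reflects their number. The gene beside a summit was snRNA:7SKa at 599 bp, 1 of the 10 that are not 5S genes. That summit was 173 bp from a start of CG1142. From the 5′ end of snRNA:7SKa the nearest thresholded summit was 1042 bp away. Within 250 bp of the 5′ end, replicate 2 had relaxed summits at 3 of these 10 genes and replicate 3 at 1, and neither had any at 5S genes. Over all genes the shares were 20.8% in replicate 2 and 15.1% in replicate 3.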

How the data were processed

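Jing was measured by ChIP-seq in 2 biological replicates of whole embryos, which form 1 group. Peaks are in dm6 coordinates per the labels; aligner and peak caller were not given in the sources used here. For each peak the deposited lists give a signal on a scale that is not stated and the −log10 q-value, both the authors' own; the lists hold no counts, so depth is unknown. Summits lie at the centre of 98.4 to 99.0% of relaxed peaks and of 81.7% of thresholded ones, which limits their precision. The thresholded list holds the peaks left by an irreproducible discovery rate step, as the deposited list is named.

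The tRNA genes and all other genes were taken from the Ensembl release 115 annotation, and sequences from the RefSeq Release 6 assembly, whose coordinates are those of dm6. Transposable elements were left out. Distances ran from the nearest base of the gene, or from its first base, to the summit. Clusters joined neighbours within 5 kb. Ranks follow the signal. Of the 2 genes missing from each of 2 lists (TfIIIA, TfIIIC-220, CCA1 and Mettl1) no match was found by symbol.

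The genes named are all tRNA genes with a thresholded summit within 1 kb, the 10 strongest pooled peaks below the threshold, the 5 clusters with most genes and up to 4 members of each other list, of which 2 are not reported here. Other genes were named after their values were seen. Members and lists were chosen with earlier results of these data known, and the comparison of replicates within 250 bp after seeing the data. No test was run, since there is 1 group. The distance and cluster code was tested on simulated data. Python 3.11.15, pandas 2.3.3 and numpy 2.4.6 were used. Alternatives were other distances, cluster gaps, stricter lists and single replicates.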

Additional observations from a re-analysis of the deposited data

How the results depend on the processing

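No paired analysis was possible because there is 1 group and no test. The count of 9 tRNA genes with a thresholded summit within 1 kb was 3 within 250 bp, 4 within 500 bp, 30 within 2000 bp and 5 with the strongest 1296 thresholded peaks; from single replicates it ran from 8 to 14. It was 9 also by the 5′ end. The 8 clusters became 3 within 250 bp, 4 within 500 bp, 17 within 2000 bp and 4 with those 1296 peaks, ran from 7 to 10 with single replicates, and were 8 with gaps of 2 or 10 kb. The 106 genes of the pooled relaxed list were 25 within 250 bp, 43 within 500 bp and 171 within 2000 bp, and 102 to 149 in single replicates. The median distance of 18841 bp was 17444.5 bp with 1 gene per cluster and 18062 to 18395 bp with single replicates, whose SD was 235.5 bp. With starts of protein-coding genes only, 6 genes were again nearer to the summit. Settings chosen after seeing the data changed the counts of both replicates but not their order. The 63 genes of replicate 2 became 26 within 100 bp, 94 within 500 bp, 34 with the strongest 20000 peaks and 17 with the strongest 10000. The 20 genes of replicate 3 became 4 within 100 bp, 40 within 500 bp, 11 with the strongest 20000 and 5 with the strongest 10000. These counts follow from the stricter or wider rule itself; with no read counts deposited, differences in depth between the replicates were not tested.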
